A study of Mus musculus with 2 samples.

Results

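The Zfp36 mRNA decay family comprised the 3 genes of the 32285 in the files that carry the symbols Zfp36, Zfp36l1 and Zfp36l2. They were chosen by name, with earlier results of these data known. Immune cells from the lamina propria of the mouse colon, the connective tissue under the gut epithelium, were profiled in 2 single-cell libraries titled Runx3_fl and Runx3, and each library was the only one of its group. The study compared Runx3 fl/fl mice with Runx3 fl/fl mice that carry Lyz2-Cre, in which the myeloid promoter of the lysozyme gene Lyz2 drives the deletion, and it describes each group as a pool of young adult males. The titles do not say which library came from mice with Cre, and they serve here as the only names of the libraries. With 1 library per group, no test between groups was possible, and the 95% intervals given here cover counting error only and not differences between mice or libraries.

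The 3 proteins carry tandem CCCH zinc fingers that bind AU-rich elements in messenger RNAs. They recruit the CCR4-NOT complex, which shortens the poly(A) tail, and the bound transcripts are then decapped and degraded. Zfp36, also called tristetraprolin, is an immediate early gene known for limiting cytokine mRNAs such as Tnf in macrophages, and its protein is held inactive through phosphorylation by the p38 target kinase MK2. Zfp36l1 and Zfp36l2 are known for their roles in the development and quiescence of lymphocytes. A further mouse member, Zfp36l3, known from the placenta, gave 0 UMIs in the 11885 kept cells of library Runx3_fl and in the 8167 of library Runx3, which allows shares of cells with a UMI of up to 0.0252% and 0.0367%. A UMI, or unique molecular identifier, stands for 1 captured RNA molecule.

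Cells were assigned to 6 classes by the RNA of 1 or 2 marker genes and by not passing the gate of another class. The gates were Ncr1 for natural killer (NK) cells, Cd3e for T cells, Cd79a for B lineage cells, Csf3r for neutrophils, Flt3 for dendritic cells, and Csf1r with C1qa for macrophages. A cell with only 1 of Csf1r and C1qa could thus enter another class. In the Csf3r gate, 694 of 1378 cells of Runx3_fl and 725 of 1448 of Runx3 had Csf1r. Per gate, 101 to 2838 cells were found in a library, with 254 and 276 macrophage-gated cells in Runx3_fl and Runx3. Of 50 markers not used for gating, each was highest in its own class in library Runx3_fl. In library Runx3, Trbc1, Il1r2, Itgae and Cd24a were highest in another class. The labels call the cells CD11b+, yet Itgam, the gene for CD11b, had a UMI in 44.6% of kept cells of Runx3_fl and in 38.2% of those of Runx3, and T, B and NK gates held many cells.

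The libraries stood apart in several ways that touch every comparison below. They shared 37 cell barcodes. Kept cells had a median of 9573 UMIs in Runx3_fl and 5731 in Runx3. Xist, the RNA of the inactive X chromosome, was at 109 CPM in macrophage-gated cells of Runx3_fl and at 0 in those of Runx3, although the study describes male mice. CPM is the UMIs of a gene per 1000000 UMIs of the class. The targeted gene Runx3 was at 157 CPM in macrophage-gated cells of Runx3_fl and at 245 CPM in those of Runx3, and since a 3' tag can lie outside a deleted exon this does not check the labels. The neutrophil RNA S100a8 was at 4.41 and 167 CPM in macrophage-gated cells, at 4.19 and 120 CPM in T-gated cells and at 4.06 and 125 CPM in B-gated cells of the respective libraries. The heat shock gene Hspa1a, which shares reads with its near-identical copy Hspa1b, was at 181 and 1172 CPM in macrophage-gated cells. The part of these shifts in the results was not tested.

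The members lie on 3 chromosomes in the GENCODE M21 annotation of GRCm38. Zfp36 (ENSMUSG00000044786) spans chr7:28376784-28380253, Zfp36l1 (ENSMUSG00000021127) spans chr12:80107754-80113013, and Zfp36l2 (ENSMUSG00000045817) spans chr17:84183931-84187947, all on the minus strand. Each overlaps an annotated antisense gene and no gene on its own strand, and whether the authors' counting used strand is not given in the sources used here. Upstream sequences were in the RefSeq table for Zfp36 and Zfp36l1. They are shown so that the upstream letters of 2 members with different patterns across classes can be compared, as the 250 bases before the RefSeq start site read 5' to 3' on the gene's strand in GRCm38.p6. The Zfp36 window is chr7:28379229-28379478, which lies inside the GENCODE span of the gene because the RefSeq start is downstream of the 5' end of that span, and the Zfp36l1 window is chr12:80113014-80113263. Capitals mark the motif matches described next.
Zfp36: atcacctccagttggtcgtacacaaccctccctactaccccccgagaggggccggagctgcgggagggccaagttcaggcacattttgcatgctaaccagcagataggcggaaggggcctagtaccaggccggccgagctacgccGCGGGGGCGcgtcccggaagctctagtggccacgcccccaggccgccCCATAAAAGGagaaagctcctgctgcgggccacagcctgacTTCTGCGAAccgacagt
Zfp36l1: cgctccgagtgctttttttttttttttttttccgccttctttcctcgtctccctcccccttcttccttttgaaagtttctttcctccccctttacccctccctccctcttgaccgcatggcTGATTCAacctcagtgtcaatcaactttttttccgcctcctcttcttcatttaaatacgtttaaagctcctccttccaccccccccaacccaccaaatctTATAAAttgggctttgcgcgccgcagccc

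The Zfp36 window held a match to the EGR motif (GCGNGGGCG) at -105 to -97, a serum response factor CArG box at -58 to -49 and a STAT motif (TTCNNNGAA) at -17 to -9, counted with the start site as 0. The Zfp36l1 window held an AP-1 motif (TGANTCA) at -129 to -123 and a TATA box (TATAAA) at -29 to -24. Both strands were searched, and these matches do not overlap. Of 32851 mouse promoter windows of this length, 4.70% held the EGR motif, 1.47% the CArG box, 7.02% the STAT motif, 6.75% the AP-1 motif and 12.4% the TATA box. The letters of the RUNX motif TGTGGT, found in 14.0% of windows, of the NR4A motif AAAGGTCA, found in 1.34%, and of the CRE TGACGTCA, found in 1.55%, were in neither window. GC content was 64.8% for Zfp36 and 48.4% for Zfp36l1, against a median of 52.4% over all windows. A match is a description of letters and not a bound site.

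The members divided the classes between them in library Runx3_fl. Zfp36 was the myeloid member: its level was 1082 CPM (95% interval 1062 to 1102) in the Csf3r gate, 676 CPM (663 to 690) in dendritic cells and 627 CPM (600 to 656) in macrophages. It was at 185 CPM (177 to 194) in NK cells, at 181 CPM (171 to 192) in B-gated cells and at 90.4 CPM (87.5 to 93.4) in T cells. The highest class was 11.96 times the lowest, and NK and B-gated cells did not differ beyond counting error.

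Zfp36l2 had a lymphoid pattern in the same library. It was at 968 CPM (950 to 987) in NK cells and 502 CPM (496 to 509) in T cells, at 277 CPM (269 to 286) in dendritic cells, at 249 CPM (231 to 266) in macrophages and at 243 CPM (233 to 252) in the Csf3r gate. B-gated cells were lowest at 161 CPM (152 to 171), and macrophages and the Csf3r gate overlapped. The highest class was 6.003 times the lowest.

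Zfp36l1 varied least across classes in Runx3_fl, with its highest class 1.91 times its lowest. Its levels were 256 CPM (243 to 268) in B-gated cells, 227 CPM (218 to 236) in NK cells, 221 CPM (205 to 238) in macrophages, 198 CPM (191 to 205) in dendritic cells, 187 CPM (179 to 196) in the Csf3r gate and 134 CPM (130 to 137) in T cells. NK cells and macrophages overlapped, as did dendritic cells and the Csf3r gate.

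In library Runx3 the highest class was 3.06 times the lowest for Zfp36, 3.49 times for Zfp36l1 and 4.20 times for Zfp36l2. Zfp36 was again highest in the Csf3r gate, at 1511 CPM (1488 to 1534), followed by macrophages at 1356 CPM (1308 to 1405) and dendritic cells at 1337 CPM (1307 to 1368), which overlapped. The lymphoid classes followed, with T cells at 611 CPM (584 to 638), B-gated cells at 589 CPM (572 to 605) and NK cells at 494 CPM (452 to 539). Zfp36l2 was again highest in NK cells, at 1085 CPM (1023 to 1150), and in T cells, at 884 CPM (851 to 917), and again lowest in B-gated cells, at 259 CPM (248 to 270).

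The Zfp36l1 order was another in library Runx3. T cells, lowest in Runx3_fl, were highest at 550.0 CPM (525 to 576), then B-gated cells at 384 CPM (371 to 397). Macrophages at 251 CPM (231 to 273), NK cells at 238 CPM (210 to 270) and dendritic cells at 224 CPM (211 to 236) overlapped from neighbour to neighbour, and the Csf3r gate was lowest at 158 CPM (150 to 165). The plot of levels shows the 3 patterns.

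**Figure D1:**
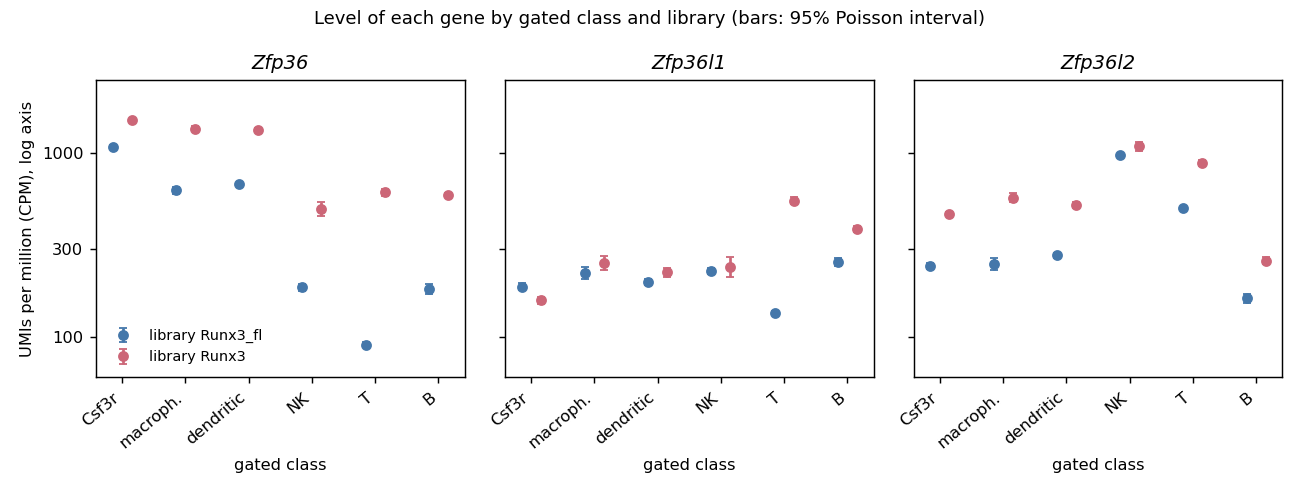
Level of each family member (CPM, log axis) in 6 gated classes of libraries Runx3_fl (blue) and Runx3 (red), 1 library each, with 95% Poisson intervals. Zfp36 was highest in the Csf3r gate, macrophages and dendritic cells of both libraries, and Zfp36l2 in NK and T cells of both.

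As a share of the family's own UMIs, Zfp36 held 57.2% (55.5 to 58.8) in macrophages of Runx3_fl and 62.3% (60.9 to 63.6) in those of Runx3. In the Csf3r gate it held 71.6% and 70.8%, the most even pair. Zfp36l2 held 70.1% in NK cells and 69.1% in T cells of Runx3_fl, and 59.7% and 43.2% in those of Runx3. B-gated cells had Zfp36l1 as the largest share in Runx3_fl, at 42.7% (41.1 to 44.3), and Zfp36 in Runx3, at 47.8% (46.8 to 48.8). In macrophages the share of Zfp36l1 was 20.2% (18.8 to 21.5) in Runx3_fl and 11.5% (10.7 to 12.5) in Runx3. The 3' method counts molecules and not bases, so counts of the 3 genes do not scale with transcript length, but their capture can differ. Summed over the family, macrophages held 1097 CPM in Runx3_fl and 2177 CPM in Runx3.

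**Figure D2:**
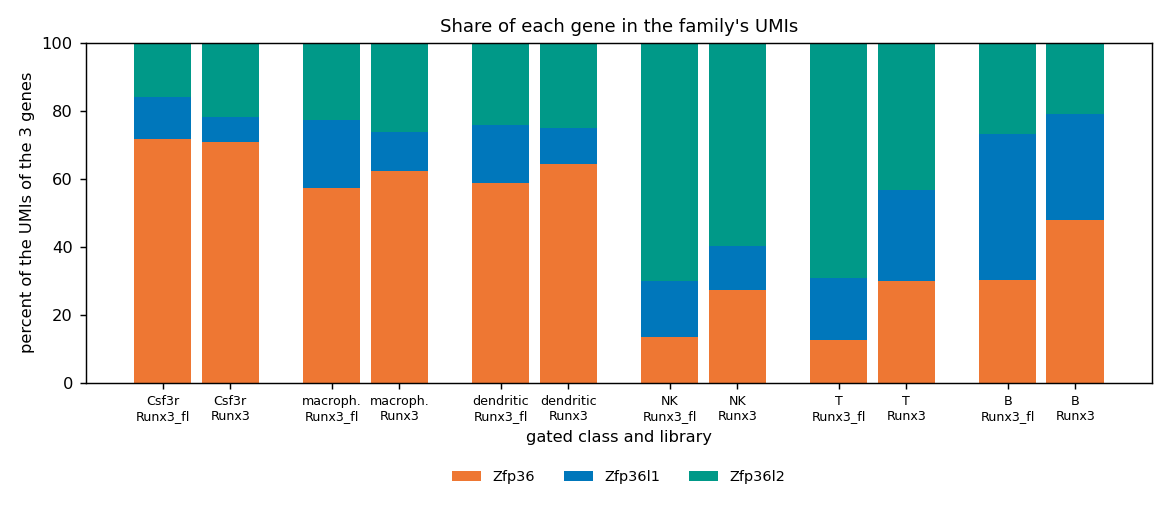
Percent of the family's UMIs held by Zfp36 (orange), Zfp36l1 (blue) and Zfp36l2 (green) in each gated class of the 2 libraries. Zfp36 held 57.2% to 71.6% in the Csf3r, macrophage and dendritic gates, and Zfp36l2 held the largest share in NK and T cells of both libraries.

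The study deleted Runx3 in myeloid cells, and the macrophage gate was the main comparison between the libraries. Zfp36 was higher in library Runx3, at 1356 against 627 CPM, a fold of 2.16 and a log2 ratio of 1.11 (1.03 to 1.19). Zfp36l2 was higher by a similar factor, at 570.0 CPM (539 to 602) against 249 CPM (231 to 266), a fold of 2.29 and a log2 ratio of 1.19 (1.07 to 1.33). Zfp36l1, at 251 against 221 CPM, had a log2 ratio of 0.18 (0.02 to 0.35). Log2 ratios are of CPM plus 1 in Runx3 over Runx3_fl. The median of all 8175 genes tested in this gate was 0.19, so Zfp36l1 sat at that shift while the other 2 genes lay above it. The RNA of the gate differed in other ways as well. The 9 macrophage markers summed to 2997 CPM in Runx3_fl and 6583 CPM in Runx3, with Apoe at 793 and 3301 CPM but C1qb at 938 and 1103 CPM. The 8 B cell markers summed to 43.2 and 254 CPM. Lyz2, whose promoter drives Cre in the study, was at 2946 and 969 CPM in the respective libraries, and at 3641 and 1818 CPM in the Csf3r gate. Gzma was at 152 and 4.96 CPM, and at 183 and 13.9 CPM in the Csf3r gate, so neither shift was particular to the macrophage gate. Whether these bear on the family was not tested. Of the 3 members, 2 were at least 2-fold higher, beside 12.2% of all genes tested, and 0 were at least 2-fold lower, beside 3.23%. Over all genes this was 995 higher and 264 lower, or 721 and 391 with the median gene set to 0.

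Zfp36 and Zfp36l2 stayed above 0 in macrophages under each of the 11 alternatives, from 0.92 to 1.31 and from 0.77 to 1.26. The ratio of Zfp36l1 changed sign, to -0.01 with the median gene set to 0, -0.05 with at most 4000 genes per cell and -0.18 with cells thinned to 2000 UMIs. Free RNA was also subtracted, taken to have the summed profile of all kept cells of a library, which was not checked. Under that assumption 4 foreign markers allowed at most 2.70% and 3.59% of macrophage UMIs in Runx3_fl and Runx3. Subtracting these amounts left 1.10 for Zfp36, 0.17 for Zfp36l1 and 1.24 for Zfp36l2.

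The same 2 genes were higher in dendritic cells, beside a median gene of 0.10. Zfp36 had a log2 ratio of 0.98 (0.94 to 1.03), Zfp36l2 of 0.91 (0.84 to 0.98) and Zfp36l1 of 0.18 (0.08 to 0.27). None reached 2-fold in this gate, beside 7.46% of genes tested that were at least 2-fold higher and 1.68% that were lower. The dendritic gate differed in make-up: Xcr1, of type 1 dendritic cells (cDC1), was at 88.8 CPM in Runx3_fl and 14.5 CPM in Runx3. Cd209a, of type 2 dendritic cells (cDC2), was at 49.4 and 184 CPM. Whether this bears on the family was not tested. In the Csf3r gate, beside a median gene of 0.24, Zfp36l2 had the largest ratio of the 3, 0.94 (0.87 to 1.01), Zfp36 had 0.48 (0.45 to 0.52), and Zfp36l1 was lower, at -0.25 (-0.34 to -0.16). None reached 2-fold there either, beside 11.2% of genes tested that were higher and 3.19% that were lower. With inclusive gates, with thinned cells and in thinned cells with no Fos UMI, Zfp36l1 in the Csf3r gate was above 0, at 0.14, 0.03 and 0.03, and the Zfp36 ratio ranged from 0.16 to 0.70 over the 10 alternatives run there.

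The largest differences of Zfp36 and Zfp36l1 over the 6 gates were in T cells. There Zfp36 was at 611 against 90.4 CPM, a fold of 6.75 and a log2 ratio of 2.74 (2.68 to 2.83). Zfp36l1 was at 550.0 against 134 CPM, a fold of 4.11 and a log2 ratio of 2.03 (1.96 to 2.12). Zfp36l2 had 0.81 (0.76 to 0.87). The median gene was at 0.06, and 2 of 3 members were at least 2-fold higher, beside 13.1% of genes tested, and 0 were at least 2-fold lower, beside 9.32%. The T gate differed in make-up too: the 9 T cell markers summed to 4551 CPM in Runx3_fl and 2541 CPM in Runx3. The cytotoxic gene Gzma was at 1775 and 120 CPM. RNA of other cells also differed: the 8 neutrophil markers summed to 54.0 and 364 CPM, beside 37.3 and 374 CPM in B-gated cells. Lyz2 was at 82.3 and 116 CPM in T cells. Whether these bear on the family was not tested.

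In B-gated cells the log2 ratios were 1.69 (1.61 to 1.79) for Zfp36, 0.59 (0.50 to 0.67) for Zfp36l1 and 0.68 (0.57 to 0.79) for Zfp36l2, beside a median gene of 0.24. This gate differed in make-up as well: the immunoglobulin gene Igkc was at 78688 CPM in Runx3_fl and 34996 CPM in Runx3. Cells with Ms4a1, a B cell gene that plasma cells lose, were 110 of 353 and 743 of 1243. Whether this bears on the family was not tested. One member, Zfp36, was at least 2-fold higher, beside 19.7% of genes tested, and 0 were at least 2-fold lower, beside 15.6%. In NK cells Zfp36 was again at least 2-fold higher, with a ratio of 1.41 (1.27 to 1.55), beside 5.78% of genes tested, and 0 members were at least 2-fold lower, beside 1.56%. Zfp36l2 in NK cells had a ratio of 0.16 (0.07 to 0.25), and that of Zfp36l1, 0.07 (-0.12 to 0.26), did not differ from 0 beyond counting error. Zfp36 was thus higher in library Runx3 in each of the 6 gates. Cells outside all gates had Zfp36 at 1348 CPM in Runx3 and 400.4 CPM in Runx3_fl, and Zfp36l2 at 580.0 and 628 CPM.

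**Figure D3:**
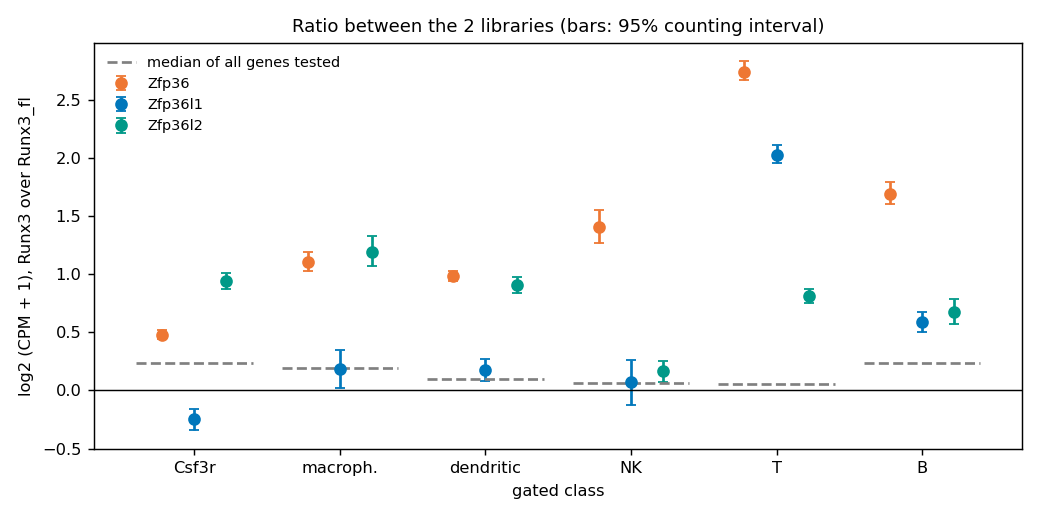
Log2 ratio of each member, library Runx3 over Runx3_fl, in 6 gated classes with 95% counting intervals; the dashed lines mark the median of all genes tested in the class. Zfp36 lay above the dashed line in each class, most in T cells at 2.74, and Zfp36l1 lay below 0 in the Csf3r gate at -0.25.

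The Csf3r gate was divided further. Its cells were split by Csf1r, a receptor of monocytes and macrophages, after the values had been seen, because S100a8 was at 1686 CPM in the gate in Runx3_fl and at 20311 CPM in Runx3. In the 684 and 723 cells without Csf1r, Zfp36 was lower in library Runx3, at 1474 CPM (1436 to 1512) against 1702 CPM (1655 to 1751), a log2 ratio of -0.21 (-0.26 to -0.15). Zfp36l1 was lower there too, at -0.53 (-0.72 to -0.36), and Zfp36l2, at 0.09 (-0.03 to 0.21), did not differ beyond counting error. The level of 1702 CPM was the highest of Zfp36 in any gate of Runx3_fl. In the 694 and 725 cells with Csf1r, Zfp36 was higher, at 1530 against 845 CPM, with a ratio of 0.86 (0.81 to 0.90), and Zfp36l2 had 1.33 (1.25 to 1.42). Zfp36l1 had -0.12 (-0.23 to -0.01). These intervals of Zfp36 and of Zfp36l2 did not overlap between the Csf1r-negative and Csf1r-positive cells.

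Monocytes, gated on Csf1r and Ly6c2 without C1qa in 442 and 548 cells, gave ratios of 1.25 (1.19 to 1.31) for Zfp36, -0.09 (-0.24 to 0.06) for Zfp36l1 and 1.14 (1.04 to 1.23) for Zfp36l2. Macrophages with Ly6c2, the mark of recent monocyte origin, had 1.11 (1.02 to 1.21) for Zfp36 and 1.22 (1.07 to 1.37) for Zfp36l2. In the 89 and 53 macrophages without Ly6c2, the gate nearest to resident macrophages, Zfp36 was at 968 CPM (870 to 1074) in Runx3 against 552 CPM (507 to 600) in Runx3_fl, a ratio of 0.81 (0.61 to 1.01). Zfp36l2 had 0.93 (0.63 to 1.22) and Zfp36l1 had 0.16 (-0.21 to 0.51). The Zfp36 interval without Ly6c2 lay below that with it, and those of Zfp36l2 overlapped. Median UMIs of the macrophages without Ly6c2 were 11519 in Runx3_fl and 4337 in Runx3. The absence of a Ly6c2 UMI is therefore weaker evidence of absent Ly6c2 in Runx3, and cells that express it can be in this gate.

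Among T cells, Zfp36 was higher in the CD4 gate, at 2.31 (2.14 to 2.51), and more so in the CD8 gate, at 2.98 (2.83 to 3.16). Zfp36l1 had 1.82 (1.67 to 1.98) in CD4 and 2.13 (1.96 to 2.31) in CD8 cells, and Zfp36l2 had 1.19 (1.08 to 1.31) and 0.84 (0.73 to 0.95). The CD4 gate held 1247 cells in Runx3_fl and 90 in Runx3, and the CD8 gate held 1074 and 73. All T-gated cells numbered 2838 and 389, so the 2 gates covered a smaller part of them in Runx3. Foxp3+ T cells, 25 in Runx3_fl and 33 in Runx3, were too few for a ratio and had the highest Zfp36l1 of the T gates in both libraries, at 527 CPM (444 to 620) and 692 CPM (609 to 783).

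B-gated cells were split by Ms4a1, the gene of the B cell antigen CD20 that plasma cells lose, also after the values had been seen. In the 110 and 743 cells with Ms4a1, Zfp36l1 was lower in library Runx3, at 422 CPM (404 to 440) against 490.5 CPM (448 to 536), a ratio of -0.22 (-0.36 to -0.07). Zfp36 had 0.97 (0.79 to 1.16) and Zfp36l2 had 0.42 (0.19 to 0.66). In the 243 and 500 cells without Ms4a1 the ratios were 2.03 (1.93 to 2.15) for Zfp36, 0.62 (0.50 to 0.74) for Zfp36l1 and 0.85 (0.72 to 0.99) for Zfp36l2. Median UMIs there were 21834 in Runx3_fl and 4449 in Runx3, so the Ms4a1-negative cells of the libraries differed in depth. The higher Zfp36l1 of all B-gated cells thus had the opposite sign to that of their Ms4a1+ cells.

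Dendritic cells with the cDC2 gene Cd209a had 0.80 (0.70 to 0.90) for Zfp36, 0.18 (-0.06 to 0.43) for Zfp36l1 and 0.92 (0.78 to 1.06) for Zfp36l2. Migratory dendritic cells, gated on Ccr7 and Fscn1 in 139 and 39 cells, had the lowest Zfp36l2 of the divided gates, at 80.1 CPM (67.3 to 94.7) in Runx3_fl and 91.6 CPM (64.5 to 126) in Runx3. Their Zfp36l1 was at 347 CPM (320 to 376) and 614 CPM (540.1 to 696). The cDC1 gate, on Xcr1, held 274 cells in Runx3_fl and 28 in Runx3, too few for a ratio.

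**Figure D4:**
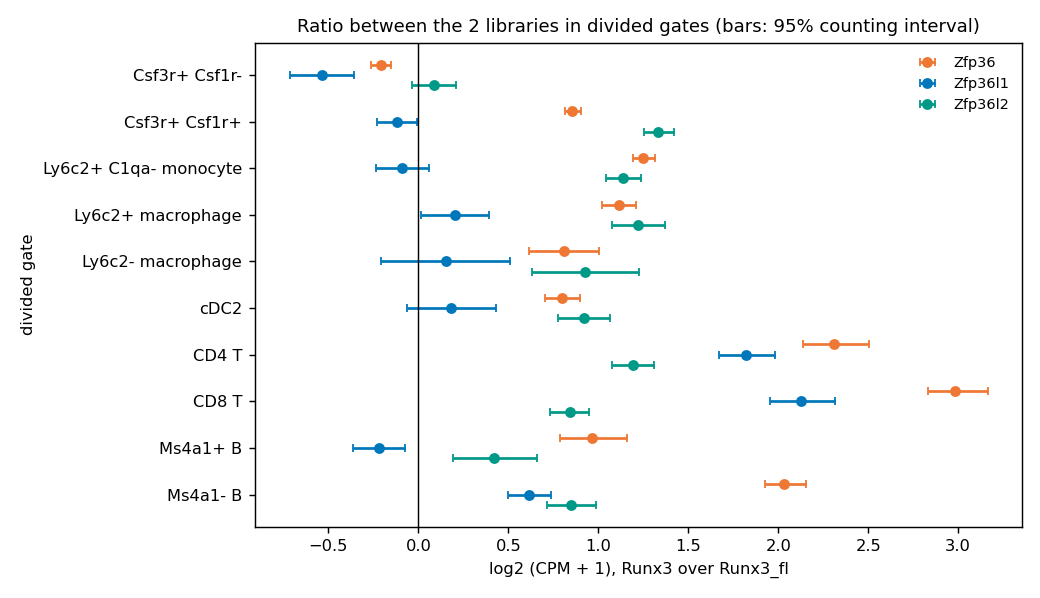
Log2 ratio of each member, library Runx3 over Runx3_fl, in 10 divided gates with at least 50 cells in each library; bars are 95% counting intervals. Zfp36 lay below 0 in the Csf3r+ Csf1r- gate at -0.21 and above 0 in the other 9.

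The share of cells with a UMI was compared in cells thinned to 2000 UMIs each, and 6 and 50 macrophages with fewer were left out. Zfp36 was then detected in 58.5% (52.1 to 64.7) of macrophages of Runx3_fl and in 85.0% (79.6 to 89.4) of those of Runx3. Unthinned shares were 87.8% and 95.3%. Zfp36l2 was detected in 33.5% (27.6 to 39.7) and 49.6% (42.9 to 56.3), and Zfp36l1 in 35.5% (29.5 to 41.8) and 30.5% (24.6 to 37.0), which overlap. Among macrophages with a Zfp36 UMI the mean was 2.12 UMIs in Runx3_fl and 3.27 in Runx3. Both the share of positive cells and the number per positive cell were thus higher.

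In T cells the thinned share with Zfp36 was 13.6% (12.4 to 14.9) in Runx3_fl and 60.7% (55.5 to 65.8) in Runx3, and that with Zfp36l1 was 21.7% (20.2 to 23.3) and 56.0% (50.7 to 61.2). No gated class lacks the family, so no class gives the share that free RNA alone would leave. UMIs of all 3 members stood together in 3.01% of thinned T cells of Runx3_fl and in 25.1% of those of Runx3. In macrophages these shares were 9.68% and 14.2%, and cells with none of the 3 made up 23.0% and 5.75%.

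Zfp36 is an immediate early gene, and immediate early and heat shock RNAs are known to rise while tissue is dissociated, so the family was read beside Fos. Fos was at 310 CPM in macrophages of Runx3_fl and 781 CPM in those of Runx3. Thinned macrophages with a Fos UMI had more Zfp36 than those without in both libraries: 899 CPM (769 to 1045) against 451 CPM (379 to 533) in Runx3_fl, and 1694 CPM (1545 to 1854) against 897 CPM (761 to 1049) in Runx3. Among the 154 and 87 macrophages with no Fos UMI, the ratio between libraries was 0.99 (0.65 to 1.33) for Zfp36 and 0.77 (0.25 to 1.31) for Zfp36l2, and both intervals lay above 0. Zfp36l1 there was lower, at -0.86 (-1.54 to -0.23). In the 247 and 170 macrophages with no S100a8 UMI the ratios were 0.99 (0.78 to 1.21), -0.23 (-0.64 to 0.18) and 0.87 (0.53 to 1.21) for Zfp36, Zfp36l1 and Zfp36l2. Both selections were chosen after the values had been seen, and a cell with no UMI of a gene at this depth can still express it.

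A list of 36 immediate early and dissociation genes, chosen with earlier results of these data known, was read beside the family. In macrophages, 13 of the 35 that were measured were at least 2-fold higher in Runx3 and 0 at least 2-fold lower, beside 12.2% and 3.23% of all genes tested, with a median of 0.67 beside 0.19 for all genes. Measured means at least 10 CPM in a library. Hspa1b and Hspa1a, near-identical heat shock copies whose split is uncertain, had 2.98 and 2.69, and Jun, an AP-1 subunit, had 2.42 (2.24 to 2.64). The lowest were Nr4a3, a nuclear receptor, at -0.36 (-0.51 to -0.21), Klf6 at -0.24 and the survival gene Mcl1 at -0.12. Nr4a1, the nuclear receptor the study followed, was at 348 CPM against 123 CPM, a ratio of 1.49 (1.32 to 1.68). This is a value of the whole macrophage gate and not of resident macrophages alone. In that gate 165 of 254 cells of Runx3_fl and 223 of 276 of Runx3 had Ly6c2, and Nr4a1 was not read in the others separately. The study reported reduced Nr4a1 and ZFP36 in resident macrophages of its mice with Cre, from single-cell clusters and from sorted cells. Which library came from those mice is not given by the titles. The list median was 0.51 in NK cells, 1.40 in T cells, 1.40 in B-gated cells, 0.41 in the Csf3r gate and 0.82 in dendritic cells. The Zfp36 ratio was above the list median in each but within the range of the list. The highest list gene was at 3.49, 4.72, 3.64, 2.76 and 2.69 in these classes, and at 2.98 in macrophages. What part dissociation had in the family's levels was not tested.

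The list of 40 RNAs known or reported as AU-rich targets, mostly cytokines, chemokines and cell cycle genes, had a median below 0 in macrophages. This list too was chosen with earlier results of these data known. Of 36 measured, 15 were at least 2-fold lower, beside 3.23% of all genes tested, with a median of -0.52. The 4 that were at least 2-fold higher were near the share of all genes, 12.2%. Il12b, a subunit of interleukins 12 and 23, was lowest at 17.6 CPM in Runx3 against 135 CPM in Runx3_fl, a ratio of -2.87 (-3.45 to -2.46). Il23a, the partner subunit of interleukin 23, had -2.39 (-2.86 to -2.03), and the inflammatory cytokine Il6 had -2.29 (-2.67 to -1.99). Tnf, the textbook target of Zfp36 and chosen here after its values were seen, was at 358 against 972 CPM, a ratio of -1.44 (-1.56 to -1.33). The highest were the cyclin Ccnd3 at 2.28 (1.94 to 2.74), Fos at 1.33 (1.22 to 1.45) and the chemokine Ccl2 at 1.12 (0.87 to 1.39). The list median was -0.19 with at most 4000 genes per cell and -0.16 in thinned cells.

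The list of targets did not have the same sign in each class. The list median was -0.52 in the Csf3r gate, with 17 of 36 measured genes at least 2-fold lower and 3 higher, beside 3.19% and 11.2% of all genes tested. It was 0.87 in T cells, where 14 of 33 were at least 2-fold higher, beside 13.1% of all genes tested, and 4 were lower, near the share of 9.32%. It was 0.76 in B-gated cells, 0.40 in dendritic cells and 0.21 in NK cells, all classes in which Zfp36 was higher in Runx3. Several genes, Fos and Dusp1 among them, stand in both this list and that of immediate early genes. An RNA count gives a level and not a decay rate, so target decay was not tested.

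The machinery that the family recruits was read in macrophages from 36 genes for deadenylation, decapping and decay. Of these, 31 were measured, and 2 were at least 2-fold higher and 0 at least 2-fold lower, which is under the 12.2% and 3.23% of all genes tested. The median was 0.09. The 2 were the deadenylase Parn, at 4.09 CPM in Runx3_fl and 14.0 CPM in Runx3 with a ratio of 1.56 (0.80 to 2.83), and Btg2, an antiproliferative binder of the CCR4-NOT deadenylase, with 1.13 (0.93 to 1.35). Tob1, of the same protein family as Btg2, had 0.82 (0.53 to 1.12). The lowest were Cnot4, a ubiquitin ligase of CCR4-NOT, at -0.51 (-0.67 to -0.36), the RNA helicase Ddx6 at -0.41 (-0.56 to -0.27) and the decapping factor Dcp1a at -0.37 (-0.81 to 0.05).

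Upstream of the family, a list of 29 genes was read. It held kinases and phosphatases of the p38 and related pathways and the phosphatase scaffold subunit Ppp2r1a. Ywhab, Ywhae, Ywhag, Ywhah, Ywhaq and Ywhaz, which encode adaptors that bind phosphorylated proteins, were also in it. In macrophages 26 were measured, with a median of 0.12. Of these, 3 were at least 2-fold higher, near the 12.2% of all genes tested, and 0 were lower, beside 3.23%. The 3 were dual specificity phosphatases that act on MAP kinases: Dusp4, at 2.83 and 15.3 CPM, with 2.09 (1.35 to 3.68), Dusp6 with 1.64 (1.28 to 2.08) and Dusp2 with 1.26 (1.10 to 1.44). Among the lowest were Dusp16, a phosphatase of JNK and p38, at -0.95 (-1.12 to -0.79), and the MAP kinase kinase Map2k1 at -0.47 (-0.70 to -0.24). Of 20 other proteins that bind AU-rich or stem-loop elements, 19 were measured, and 1 was at least 2-fold higher and 0 lower, also beside 12.2% and 3.23%. It was Zc3h12d, at 6.30 and 14.0 CPM with 1.04 (0.29 to 2.04). Their median was -0.01. Arid5a, which stabilizes Il6 mRNA, had 0.55 (0.19 to 0.94), and Khsrp, a decay-promoting binder, had 0.41 (0.04 to 0.80). Zc3h12c, of the regnase family, was lowest at -0.56 (-0.73 to -0.40), followed by Hnrnpd, also called AUF1, at -0.24 (-0.44 to -0.03) and the stabilizer Elavl1, also called HuR, at -0.21 (-0.45 to 0.02).

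**Figure D5:**
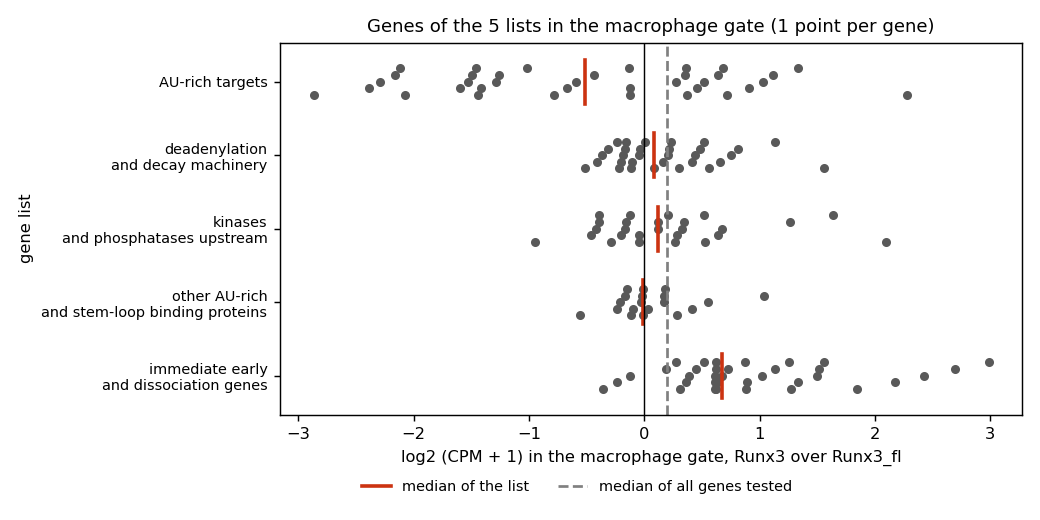
Log2 ratio in macrophage-gated cells, library Runx3 over Runx3_fl, of the measured genes of 5 lists (1 point per gene; vertical offsets only separate points), with each list's median in red and the median of all 8175 genes tested dashed. The AU-rich targets reach furthest to the left, with a median of -0.52, and the immediate early genes lie furthest to the right, with a median of 0.67.

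The 3 members did not share a pattern across classes and libraries. Over the 12 points made by 6 classes and 2 libraries, Pearson's r of log2(CPM + 1) was 0.13 between Zfp36 and Zfp36l1, -0.03 between Zfp36 and Zfp36l2 and 0.15 between Zfp36l1 and Zfp36l2. Points share libraries and depth, and r is given as a description. Of 5615 genes compared, those most like Zfp36 were H2-T23 with r of 0.97, Gm49774 with 0.97, Ubtd1 with 0.97, Slfn5 with 0.96 and Atf3, a stress-induced transcription factor, with 0.96. Gm49774 is an antisense RNA that overlaps Hmga1. Those most like Zfp36l1 were Patj with 0.90, Fars2 with 0.87, Tmem64 with 0.86, Camsap2 with 0.86 and Pias2 with 0.86. Those most like Zfp36l2 were Mknk2, a kinase of the MAP kinase pathways, with 0.95, Tfip11 with 0.95, Irf2bpl with 0.95, Gramd1a with 0.95 and Dync1li1 with 0.94.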

How the data were processed

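Colon lamina propria cells were profiled in 2 libraries, 1 per group, which were named by their titles. The authors prepared them with 10x Genomics 3' chemistry and deposited raw UMI counts, as whole numbers for each gene in each barcode that Cell Ranger 7.1.0 called a cell, per the file headers. The submitters' processing notes name mm10 and Seurat 4. Whether intronic reads were counted is not given in the sources used here. If they were, RNA not yet spliced adds to each level.

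Cells with 200 to 6000 genes and at most 15% mitochondrial UMIs were kept, the limits the study states, with the upper limit as the treatment of doublets. This kept 11885 of 12968 barcodes of Runx3_fl and 8167 of 8953 of Runx3. All barcodes held 146204416 UMIs in Runx3_fl and 75478164 in Runx3, and the kept cells held 136381056 and 65556454. A cell entered a gate with at least 1 UMI of each of its markers and without passing another gate. The 1168 and 1599 cells that passed several gates were left out. These gates stand in for the clusters of the study, and values can differ from its own for that reason.

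UMIs were summed per class and library and given as CPM with exact Poisson intervals. Ratios are log2 with 1 CPM added, with exact conditional binomial intervals. Shares of cells carry Clopper-Pearson intervals. Genes from 10 CPM in a library entered counts of 2-fold differences, and a ratio needed 50 cells in each library. Limits for a count of 0 rest on 3 counts. UMI intervals cover counting error only. Named genes were the members, the 3 highest and 3 lowest genes of each list in macrophages, the 5 genes most like each member among those from 50 CPM in a point, the study genes and the gate markers, and 1 gene that this rule picks is not reported here. Itgam was added to check the labels. The members, gates and lists were chosen with earlier results of these data known. Of the 32285 gene IDs, 32158 were in the GENCODE M21 annotation, whose coordinates are printed. The ratio steps were tested on simulated data. Scripts ran under Python 3.11.15 with pandas 2.3.3, matplotlib 3.10.9, scipy 1.17.1 and numpy 2.4.6.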

Additional observations from a re-analysis of the deposited data

Results flagged for a closer look

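The differences between the libraries had opposite directions, beyond counting error, in some of the gates. None of these differences between gates was tested, since each group had 1 library. Zfp36l1 was lower in library Runx3 in the Csf3r gate, with a log2 ratio of -0.25, and higher in T, B-gated, dendritic and macrophage cells, with 2.03 in T cells. Within the Csf3r gate, Zfp36 was lower in library Runx3 in cells without Csf1r, at -0.21, and higher in cells with Csf1r, at 0.86. Zfp36l1 was lower in both, at -0.53 and -0.12, and in B-gated cells with Ms4a1, at -0.22, but higher in B-gated cells without Ms4a1, at 0.62.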

How the results depend on the processing

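No paired analysis was possible because each group had 1 library. In macrophages the log2 ratios of Zfp36 and Zfp36l2 kept their direction under all 11 alternatives. Zfp36 was at 0.92 with the median gene set to 0, 1.31 as a mean over cells, and 0.99 both in cells with no Fos UMI and in cells with no S100a8 UMI. Zfp36l2 was at 0.95 with inclusive gates, 1.00 with the median gene set to 0, 0.81 with thinned cells, 0.77 with no Fos UMI and 0.87 with no S100a8 UMI. Zfp36l1 was at 0.38 with at least 2 UMIs of each gate marker, and below 0 with the median gene set to 0 (-0.0088), at most 4000 genes per cell (-0.051), thinned cells (-0.18), no Fos UMI (-0.86) and no S100a8 UMI (-0.23). In the Csf3r gate Zfp36l1 was above 0 with inclusive gates (0.14), thinned cells (0.034) and no Fos UMI (0.026). The cause was not tested. The 2 alternatives on Fos and S100a8 were chosen after seeing the data. In the other classes, 158 of 162 alternative values of the members had the sign of the main value. Only 76 of the 162 lay within the counting interval of the main value. Another 83 moved outside it, and 3 changed sign where that interval excluded 0. In B-gated cells, for example, the alternatives for Zfp36l1 ran from 0.05 to 0.65 and those for Zfp36 from 1.15 to 1.87.

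The number of genes at least 2-fold higher in macrophages was 995, but 1606 with thinned cells and 2545 among genes from 1 CPM, and the number lower was 264, but 608 and 508. Depth limits the small gates, such as the 53 macrophages without Ly6c2 of library Runx3, which gave 357 UMIs of Zfp36 and 94 of Zfp36l1.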
